A study of Homo sapiens with 4 samples.

Results

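The mitosis and spindle genes described here were 46 genes that act between entry into mitosis and the division of the cell, chosen by symbol from the known machinery of these steps. Of 41507 genes with values per library, an entry was taken where its identifier equalled a member's symbol, and each of the 46 members was found. They comprised the mitotic cyclins with CDK1 and the CDC25 phosphatases (6 genes), the transcription factor FOXM1, Polo-like and Aurora A kinases (3), the chromosomal passenger complex (4), spindle checkpoint and anaphase regulators (8), kinetochore proteins (6), kinesins (10), other spindle and cytokinesis proteins (6) and the chromosome proteins TOP2A and MKI67.

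RNA was sequenced from SU-DHL-5 and Toledo, established human cell lines of diffuse large B-cell lymphoma that the labels give as B lymphocytes. Each line was treated with the BET bromodomain inhibitor JQ1 at 1 µM or with DMSO, in which JQ1 is dissolved, to learn which genes respond to the inhibitor. The labels give 6 h of treatment for both arms, and the study's legend gives a longer time, so the time behind these values is uncertain. There was 1 sample per line and treatment, with 2 libraries each. What separates the libraries of a sample is not given in the sources used here, so they were averaged and counted as 1 sample, and the differences have no replicate check and no p-value.

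Cells enter mitosis when cyclin B and CDK1 become active, helped by CDC25 phosphatases, Polo-like kinase 1 and Aurora A. The kinetochores then attach chromosomes to a spindle that kinesins shape, the checkpoint holds back the anaphase-promoting complex until attachment is complete, and securin and cyclins are then destroyed. Many of these genes are transcribed late in the cell cycle through FOXM1, B-MYB and the MuvB complex, which bind a promoter element called the CHR, and proliferating lymphoma cells express them strongly.

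The depth per library was recovered from the values themselves. In SU-DHL-5 the DMSO libraries held 15703426 and 16980339 mapped reads and the JQ1 libraries 16499509 and 14617583. In Toledo the DMSO libraries held 17679831 and 16239917 and the JQ1 libraries 16264753 and 16137756, so depth was close across the 8 libraries. Values are RPKM, reads per kilobase of gene scaled to the mapped reads of the library. The members were covered by 223 to 6046 reads per library in SU-DHL-5 and by 254 to 20733 in Toledo. A ratio is the log2 of JQ1 over DMSO after adding 0.1 RPKM to the mean of each pair of libraries, and a gene was tested in a line if it averaged at least 1 RPKM over its 4 libraries. A gene is said to rise or fall where this ratio reached 1.5-fold. Intervals at the 95% level are exact (Clopper-Pearson) and binomial. They were computed from the part of a gene's reads that came from JQ1, without the added 0.1 RPKM. They cover counting error only, and not variation between libraries or samples. PCR reads are not independent molecules, so the intervals can be too narrow even for counting error.

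The B lymphocyte label was checked against markers, and those of B cells were abundant in each library. The 5 B cell markers reported summed to 969 and 859 RPKM with DMSO and 627 and 620.0 RPKM with JQ1 in SU-DHL-5, and to 904 and 844 RPKM and 596 and 613 RPKM in Toledo, with CD79A the most abundant in SU-DHL-5 and CD79B in Toledo. These sums were lower with JQ1 in both lines. MS4A1, CD22 and CD79A fell in each, PAX5 fell in SU-DHL-5 (−0.64) and overlapped between arms in Toledo (0.27), and CD79B overlapped in SU-DHL-5 (0.01) and stood at −0.28 in Toledo. Their part in the members' values was not tested. The 6 T and NK cell markers summed to 1.60 and 1.21 RPKM with DMSO and 0.12 and 0.05 RPKM with JQ1 in SU-DHL-5, where CD3E was the most abundant, and to 0.07 and 0.30 RPKM with DMSO and 0 with JQ1 in Toledo, where CD3E was at 0 in each library. For the 6 myeloid markers the highest sum was 1.13 RPKM, with CD68 the most abundant by its mean over libraries and FCN1 and S100A8 at 0, and in each line these sums were higher with JQ1. The 6 stromal and epithelial markers summed to 5.72 and 5.16 RPKM with DMSO and 0.77 and 0.62 RPKM with JQ1 in SU-DHL-5, and to 2.29 and 2.72 RPKM and 0.25 and 0.40 RPKM in Toledo. Nearly all of this was DCN in SU-DHL-5, at 5.66 and 5.09 RPKM with DMSO, and COL1A1 in Toledo, at 2.29 and 2.72 RPKM, and the epithelial markers EPCAM and KRT18 were at 0. In bulk RNA, fewer cells in mitosis and less RNA per cell cannot be told apart.

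HEXIM1, a gene known to respond to BET inhibition, was used to check the treatment. It stood at 4.35 and 3.89 RPKM with DMSO and 22.4 and 22.9 RPKM with JQ1 in SU-DHL-5, and at 4.04 and 3.94 RPKM and 23.9 and 24.5 RPKM in Toledo. HEXIM1 rose in both lines, with log2 ratios of 2.43 and 2.57 and no overlap of libraries. MYC, a gene that BET inhibitors often lower, stood at 44.1 and 40.9 RPKM with DMSO and 35.2 and 34.4 RPKM with JQ1 in SU-DHL-5. Its Toledo libraries stood at 40.4 and 44.4 RPKM with DMSO and 44.6 and 42.1 RPKM with JQ1, where the arms overlapped. MYC did not reach 1.5-fold in either line, with log2 ratios of −0.29 (interval −0.36 to −0.21) and 0.03 (−0.04 to 0.10).

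Most mitosis and spindle genes kept a level close to that of DMSO after JQ1. All 46 passed the filter on low values in each line. Over the members the log2 ratio had a median of −0.11 in SU-DHL-5, beside 0.02 over the 9094 genes tested, and −0.15 in Toledo, beside −0.06 over 9380. The Toledo median was −0.072 without DMSO library 2, −0.069 when ratios were centred on the length of the gene and −0.090 when scaled to the median gene, which sets the median of all genes to 0. In SU-DHL-5, 1 member (FOXM1) fell, where 12.1% of all genes tested did, and 0 members rose, where 8.74% did. In Toledo 2 members (FOXM1 and KIF14) fell against 15.8% of all genes, and 0 rose against 6.71%. FOXM1 was the 1 member that fell in both lines, beside 7.39% of the 8495 genes tested in both. KIF14 was named after its values were seen. At 2-fold, the counts of lower members were 0 in SU-DHL-5 and 1 (FOXM1) in Toledo, with 0 in both, beside 5.54%, 6.81% and 2.52% of genes. The shares of members that reached these limits lay below those of the genes tested in these libraries. They rest on counts of 0 to 2 members, and the difference was not tested. The members were also more abundant, with DMSO medians of 34.1 and 35.5 RPKM beside 10.0 and 9.53 RPKM. Genes of like level were not compared. The Toledo count of 0 that rose was 2 (ANLN and KIF20B) without DMSO library 2. The Toledo count of 2 that fell depended on single libraries, being 4 (FOXM1, KIF14, PLK4 and SPC25) without DMSO library 1, 1 (FOXM1) without DMSO library 2 and 3 (FOXM1, KIF14 and SPC25) without JQ1 library 1. The SU-DHL-5 count of 1 became 2 without DMSO library 1 (FOXM1 and SPC24), without DMSO library 2 or without JQ1 library 2 (FOXM1 and PLK1 in each).

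At a log2 ratio of 0.32 or more in size, 10 members were lower and 3 higher in SU-DHL-5, beside 22.4% and 22.8% of genes, and 11 were lower and 2 higher in Toledo, beside 28.9% and 17.2%. The split changed with the scaling, to 10 lower and 0 higher in SU-DHL-5 when centred on length, and in Toledo to 5 lower and 3 higher when centred and 7 lower and 2 higher when scaled to the median gene. Without Toledo DMSO library 1 there were 13 lower and 0 higher, and without DMSO library 2 there were 10 and 7. AURKA, FOXM1, KIF22, PLK1, PRC1 and SPC25 were the 6 members lower by this limit in both lines, beside 15.5% of genes.

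The order of single libraries was compared as well. In SU-DHL-5, 23 members (50%) had both JQ1 libraries below both DMSO libraries and 12 (26.1%) had them above, beside 38.0% and 42.3% of genes. For Toledo the counts were 23 (50%) and 7 (15.2%), beside 42.9% and 29.7%, and they became 18 and 15 when ratios were centred on length. Without Toledo DMSO library 1 they became 33 and 8, without DMSO library 2 they became 23 and 17, without JQ1 library 1 they became 26 and 8, and without JQ1 library 2 they became 25 and 12. In SU-DHL-5, leaving out DMSO library 1 gave 28 and 16 and leaving out DMSO library 2 gave 27 and 18. With 1 library left out, 2 libraries are compared with 1, so such counts can stay or rise but not fall. The share of all genes under that weaker rule is not given here. In both lines together 18 members (39.1%) lay below DMSO, beside 28.9% of genes: CCNA2, CCNB1, CDC25C, PLK1, PLK4, AURKA, AURKB, BIRC5, INCENP, BUB1B, BUB3, NDC80, SPC24, SPC25, KIF2C, KIF22, PRC1 and FOXM1. The 5 members (10.9%) above DMSO in both lines, beside 24.4% of genes, were BUB1, KIF4A, KIF11, KIF20B and ANLN, of which KIF4A and KIF11 were named after their values were seen. Centred on length, 18 members lay below and 12 above in both lines, without Toledo DMSO library 1 the counts were 22 and 5, and without DMSO library 2 they were 18 and 11. MAD2L1, also named after its values were seen, was the 1 member that lay above DMSO in SU-DHL-5 and below it in Toledo, beside 6.92% of genes with opposite directions, and this count ran from 0 when centred on length to 6 without Toledo DMSO library 1.

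**Figure D1:**
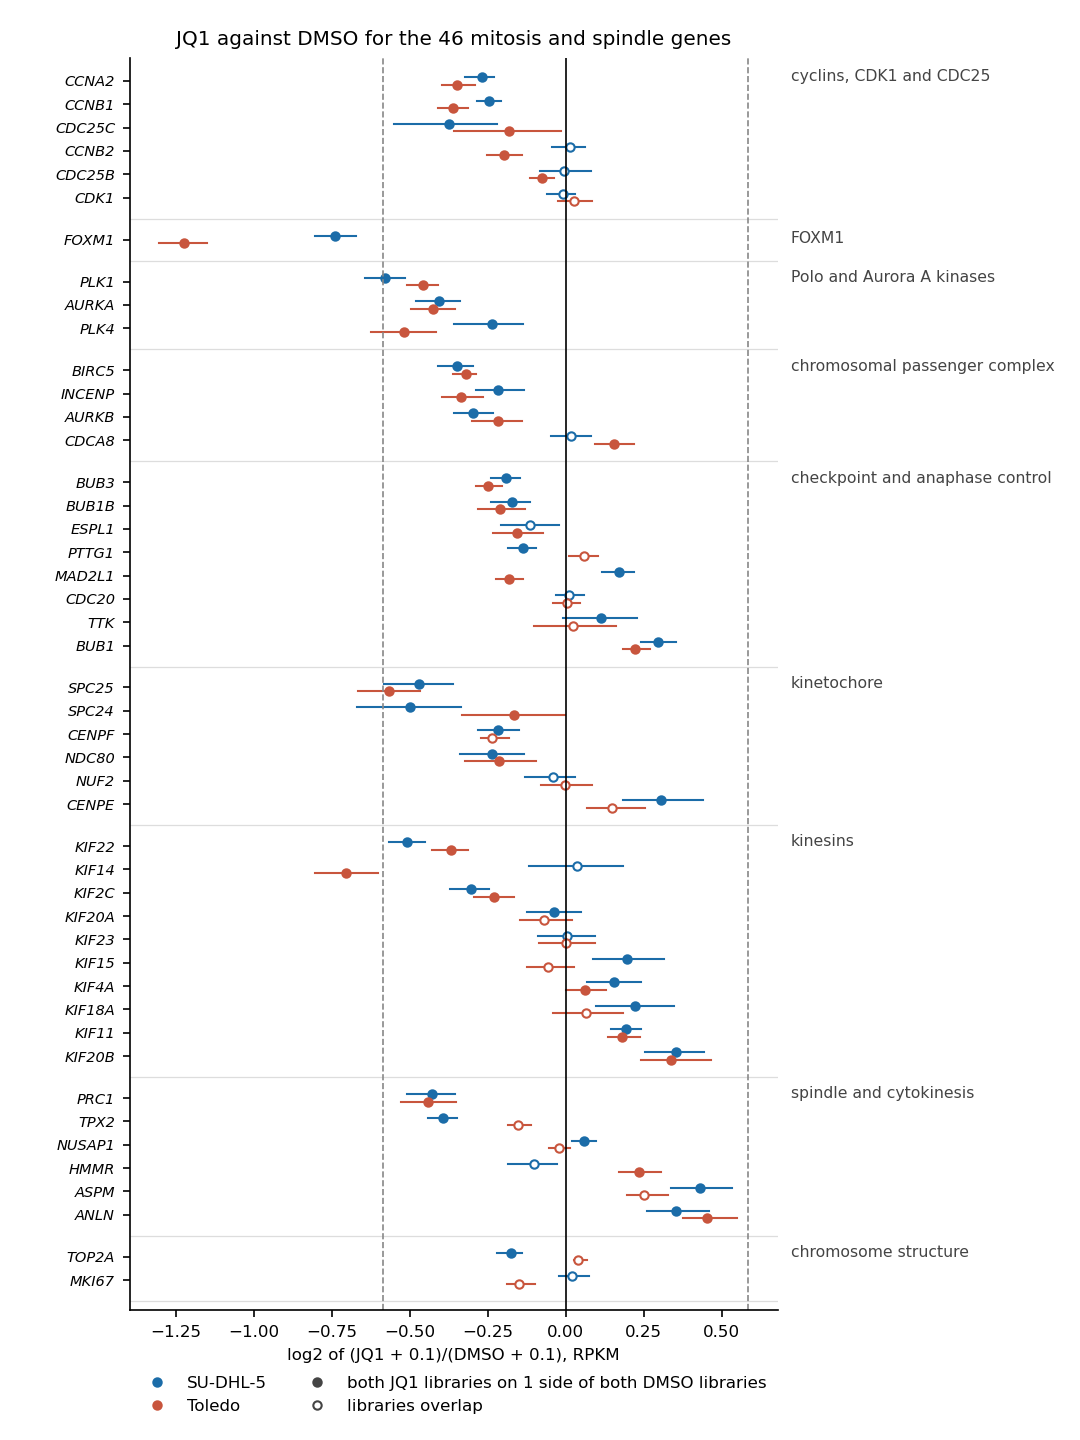
Log2 ratio of JQ1 over DMSO (horizontal axis, RPKM plus 0.1) for each of the 46 members, by role, in SU-DHL-5 (blue) and Toledo (red). Lines are 95% exact binomial intervals of counting error, filled points have both JQ1 libraries on the same side of both DMSO libraries, open points overlap, and dashed lines mark 1.5-fold. FOXM1 lies beyond the lower dashed line in both lines, at −0.74 and −1.22, and KIF14 in Toledo at −0.70.

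The plot of log2 ratios shows the members spread on both sides of 0 within most roles. Counting error is small beside this spread for abundant genes such as TOP2A, and wider for CDC25C, SPC24 and KIF14.

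The promoters of the members were examined for the elements that mark late cell cycle genes, because many of these genes share them. RefSeq promoter windows of 300 bases, from 250 before to 50 after the start site (GRCh38.p14), were matched by symbol for 40 of the 46 members, with 52 windows among 35116 in all. FOXM1, BIRC5, TTK, BUB3, AURKA and TPX2 had no entry. The CHR was searched as TTTGAA or TTTAAA, the CCAAT box as CCAAT, the E-box as CACGTG and the TATA box as TATAAA, on both strands. The CHR was in 73.1% of the members' windows, beside 24.0% of all windows, and CCAAT in 73.1%, beside 34.6%. Both were present in 55.8% of the members' windows and 9.27% of all windows. The E-box was in 9.62%, beside 7.26%, and TATAAA in 5.77%, beside 11.5%. By gene, 35 of 40 members had a CHR, namely 10 of the 14 matched members that lay below DMSO in both lines, 4 of the 5 that lay above and 21 of the other 21. A CHR was thus found among members that lay above DMSO and among those that lay below. These matches describe letters in the window and nothing about binding.

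CDC20, the activator of the anaphase-promoting complex, and MKI67, the gene of the proliferation marker Ki-67, are shown over the 120 bases before the start site. They were chosen because each carries the CHR close to CCAAT and, without centring, neither was separated from DMSO in either line. Centred on length, MKI67 lay below DMSO in SU-DHL-5 (−0.20). CDC20 lies at chr1:43358861-43358980 on the + strand and MKI67 at chr10:128126424-128126543 on the − strand, and both are RefSeq sequence of GRCh38.p14 written 5′ to 3′ on the gene's strand. Capitals mark the CHR and CCAAT on either strand, where TTCAAA is the CHR and ATTGG is CCAAT of the other strand. In MKI67 the last CHR and ATTGG share 1 base.
CDC20: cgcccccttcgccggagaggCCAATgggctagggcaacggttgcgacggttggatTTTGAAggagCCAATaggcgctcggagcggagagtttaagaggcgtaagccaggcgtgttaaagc
MKI67: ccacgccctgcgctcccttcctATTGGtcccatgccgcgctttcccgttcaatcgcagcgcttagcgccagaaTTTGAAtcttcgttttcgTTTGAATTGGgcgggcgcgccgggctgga

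The CHR whose first base lies nearest the start site is shown with its flanks, over 30 bases. The members shown are 4 that lay below DMSO in both lines (PLK1, CCNB1, PRC1 and SPC25), ANLN and KIF20B, which lay above, and CDK1, which overlapped. The regions are chr16:23678848-23678877 (+) for PLK1, chr5:69167108-69167137 (+) for CCNB1, chr15:90994538-90994567 (−) for PRC1, chr2:168890416-168890445 (−) for SPC25, chr7:36389830-36389859 (+) for ANLN, chr10:89701602-89701631 (+) for KIF20B and chr10:60778475-60778504 (+) for CDK1, from RefSeq on GRCh38.p14. The element began at −29 from the start site in PLK1, −30 in CCNB1, −20 in PRC1, −3 in SPC25 and −20 in ANLN, and after the start site in KIF20B (25) and CDK1 (10). Capitals mark the CHR on either strand.
PLK1: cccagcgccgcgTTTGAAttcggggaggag
CCNB1: agcagtgcggggTTTAAAtctgaggctagg
PRC1: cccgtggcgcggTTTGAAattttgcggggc
SPC25: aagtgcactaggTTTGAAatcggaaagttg
ANLN: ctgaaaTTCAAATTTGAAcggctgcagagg
KIF20B: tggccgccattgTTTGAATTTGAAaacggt
CDK1: ctcgcacttggcTTCAAAgctggctcttgg

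FOXM1, the transcription factor that drives late cell cycle genes, was the lowest of the members' ratios in both lines. It stood at 46.2 and 39.0 RPKM with DMSO and 25.3 and 25.6 RPKM with JQ1 in SU-DHL-5. In Toledo it stood at 38.6 and 39.0 RPKM with DMSO and 16.5 and 16.7 RPKM with JQ1. The JQ1 libraries were the low ones in each line, with no overlap, and the DMSO levels of the lines were alike. FOXM1 fell to 0.599 of DMSO in SU-DHL-5 and 0.428 of DMSO in Toledo, which on the log2 scale is −0.74 (interval −0.80 to −0.67) and −1.22 (−1.30 to −1.15). Among all genes tested, 8.62% had a lower ratio in SU-DHL-5 and 4.88% in Toledo, so the decrease of FOXM1 was well within what many genes showed. The call at 1.5-fold held in both lines under each alternative run other than a higher fold.

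Transcript values of FOXM1 were also compared. Of 6 transcripts listed, FOXM1_2 and FOXM1_3 averaged under 1 RPKM in both lines. FOXM1_2 was listed at 0 with DMSO and at 1.20 and 0.12 RPKM with JQ1 in SU-DHL-5, a direction opposite to that of the gene, and its arms overlapped in Toledo. FOXM1_1 stood at 11.5 and 10.7 RPKM with DMSO and 4.16 and 6.28 RPKM with JQ1 in SU-DHL-5, and at 15.7 and 14.2 RPKM and 5.98 and 4.04 RPKM in Toledo. FOXM1_4, the most abundant, stood at 23.3 and 18.8 RPKM with DMSO and 17.2 and 14.8 RPKM with JQ1 in SU-DHL-5, and at 16.0 and 17.5 RPKM and 7.54 and 9.56 RPKM in Toledo. For these transcripts, as for FOXM1_5 and FOXM1_6, each JQ1 library was lower than each DMSO library of the same line. The log2 ratios in SU-DHL-5 and Toledo were −1.07 and −1.55 for FOXM1_1, −0.39 and −0.96 for FOXM1_4, −1.94 and −1.44 for FOXM1_5, and −1.02 and −1.11 for FOXM1_6. How reads were divided among overlapping transcripts is not given in the sources used here, so the split between them is uncertain.

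**Figure D2:**
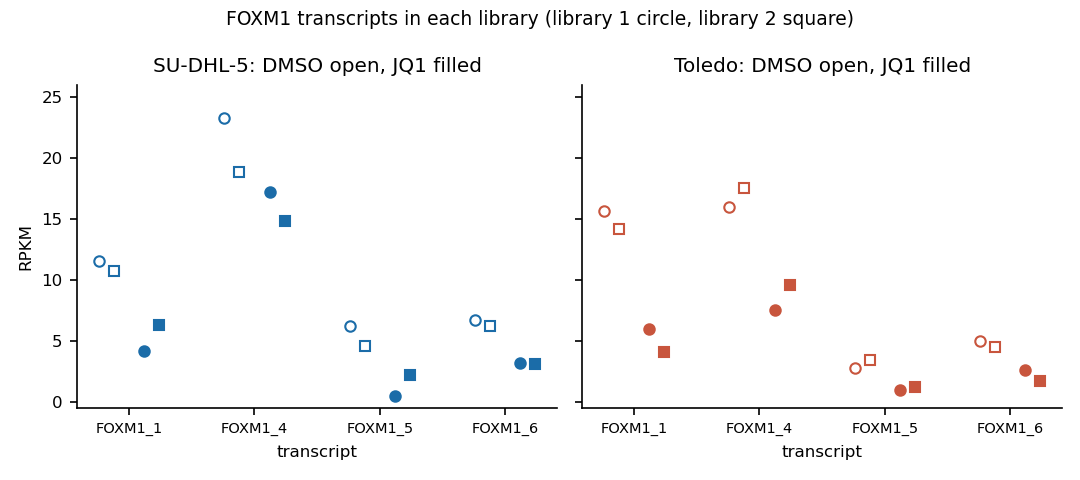
RPKM (vertical axis) of the 4 FOXM1 transcripts that averaged at least 1 RPKM, in each library of SU-DHL-5 (left) and Toledo (right), with DMSO open and JQ1 filled, library 1 as a circle and library 2 as a square. For each transcript both filled points lie below both open points of the same line.

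As the transcript plot shows, FOXM1_4 differed less between arms than FOXM1_1 did in SU-DHL-5, with JQ1 libraries at 17.2 and 14.8 RPKM beside DMSO libraries at 23.3 and 18.8 RPKM.

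Cyclins and CDK1, the engine of mitotic entry, differed little. Their 6 genes had median log2 ratios of −0.13 (SU-DHL-5) and −0.19 (Toledo, and −0.08 when centred on length). CCNB1, which encodes cyclin B1, stood at 167 and 164 RPKM with DMSO and 137 and 142 RPKM with JQ1 in SU-DHL-5, and at 113 and 111 RPKM and 89.4 and 85.4 RPKM in Toledo. CCNA2, which encodes cyclin A2, stood at 88.6 and 97.6 RPKM with DMSO and 74.7 and 79.6 RPKM with JQ1 in SU-DHL-5, and at 68.3 and 80.0 RPKM and 61.2 and 55.3 RPKM in Toledo. For both cyclins the JQ1 libraries were the low ones in each line and the arms did not overlap, although no ratio reached 1.5-fold. The log2 ratios in SU-DHL-5 and Toledo were −0.25 and −0.36 for CCNB1 (−0.15 and −0.22 when centred on length) and −0.27 and −0.35 for CCNA2, whose Toledo ratio was −0.23 without DMSO library 2. CDK1, the kinase these cyclins activate, stood at 70.7 and 84.1 RPKM with DMSO and 74.7 and 79.4 RPKM with JQ1 in SU-DHL-5, and at 44.9 and 49.0 RPKM and 50.4 and 45.2 RPKM in Toledo. The arms of CDK1 overlapped in both lines, with ratios of −0.01 (interval −0.06 to 0.03) and 0.03 (−0.02 to 0.08). With single libraries left out these ran from −0.13 to 0.12 and from −0.05 to 0.10, beyond the interval of counting error, and centred on length the Toledo ratio was 0.13.

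Polo-like and Aurora A kinases, which mature the centrosomes and build the spindle, lay below DMSO as a group, with median log2 ratios of −0.41 and −0.46 over 3 genes. PLK1 stood at 71.6 and 66.7 RPKM with DMSO and 45.6 and 46.9 RPKM with JQ1 in SU-DHL-5, and at 104 and 104 RPKM and 74.1 and 77.2 RPKM in Toledo. AURKA stood at 45.1 and 46.3 RPKM with DMSO and 34.1 and 34.7 RPKM with JQ1 in SU-DHL-5, and at 43.5 and 45.5 RPKM and 33.1 and 33.1 RPKM in Toledo. The libraries of an arm were close and the arms apart for PLK1 and AURKA in both lines. PLK1 had log2 ratios of −0.58 (interval −0.64 to −0.51) and −0.46 (−0.51 to −0.41), just short of 1.5-fold in SU-DHL-5, and reached it there when JQ1 values were scaled to the median gene. For AURKA the ratios were −0.41 (−0.48 to −0.34) and −0.43 (−0.50 to −0.35). PLK4, the kinase of centriole duplication, stood at 10.2 and 12.5 RPKM with DMSO and 9.23 and 10.0 RPKM with JQ1 in SU-DHL-5, and at 12.9 and 14.9 RPKM and 10.1 and 9.22 RPKM in Toledo. PLK4 was lower in the JQ1 libraries of both lines, at log2 ratios of −0.24 for SU-DHL-5 and −0.52 for Toledo, and the difference between lines was not tested. The SU-DHL-5 ratio was −0.37 without DMSO library 1 and −0.085 without DMSO library 2.

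**Figure D3:**
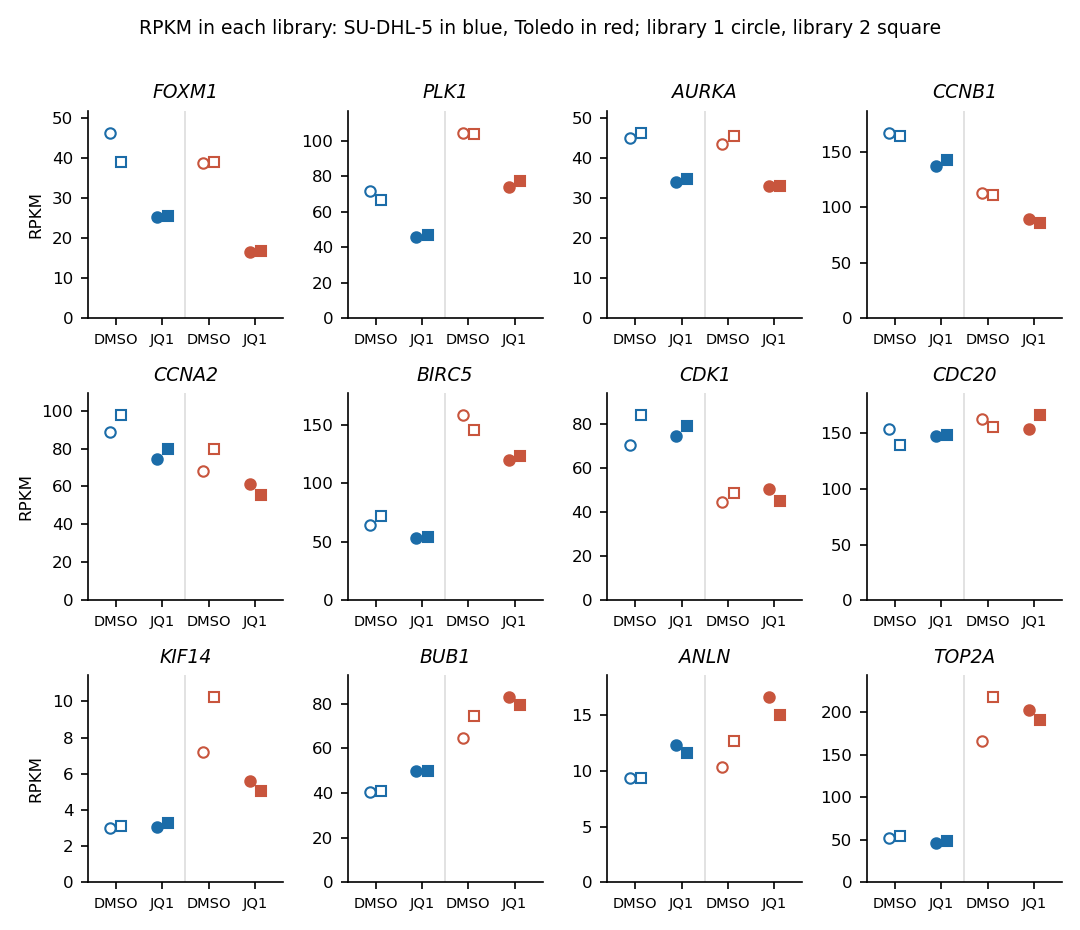
RPKM (vertical axes, from 0) of 12 members in each library, SU-DHL-5 in blue and Toledo in red, DMSO open and JQ1 filled, library 1 as a circle and library 2 as a square. FOXM1, PLK1, AURKA, CCNB1, CCNA2 and BIRC5 have both JQ1 libraries below both DMSO libraries in each line, BUB1 and ANLN have them above, and CDK1 and CDC20 overlap.

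In the plot of single libraries, TOP2A and KIF14 have DMSO libraries of Toledo that lie further apart than those of SU-DHL-5.

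The chromosomal passenger complex, which corrects faulty attachments and guides cytokinesis, had both JQ1 libraries below both DMSO libraries for 3 of its 4 genes in each line, beside 38.0% and 42.9% of genes, none of the 3 by 1.5-fold, with median log2 ratios of −0.26 and −0.27 (−0.11 in Toledo when centred on length). BIRC5, which encodes survivin, stood at 64.6 and 72.0 RPKM with DMSO and 53.4 and 53.9 RPKM with JQ1 in SU-DHL-5, and at 158 and 146 RPKM and 120 and 124 RPKM in Toledo. AURKB, the kinase of the complex, stood at 116 and 112 RPKM with DMSO and 94.6 and 91.3 RPKM with JQ1 in SU-DHL-5, and at 63.3 and 61.6 RPKM and 54.0 and 53.3 RPKM in Toledo. Both genes had their low libraries with JQ1 and no overlap, though BIRC5 was higher in Toledo and AURKB in SU-DHL-5. Log2 ratios were −0.35 and −0.32 for BIRC5 (−0.31 and −0.22 when centred on length) and −0.30 and −0.22 for AURKB. Centred on length, the ratios of AURKB were −0.18 and −0.01, so its Toledo difference depended on the scaling. CDCA8, which encodes borealin, stood at 50.1 and 48.5 RPKM with DMSO and 49.6 and 50.2 RPKM with JQ1 in SU-DHL-5, and at 48.0 and 48.3 RPKM and 53.5 and 53.8 RPKM in Toledo. Unlike its partners, CDCA8 overlapped between arms in SU-DHL-5 (0.02) and lay above DMSO in Toledo (0.16, interval 0.09 to 0.22).

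Checkpoint and anaphase genes spread on both sides of 0, with median log2 ratios of −0.05 and −0.08 over 8 genes. These became 0.03 and −0.14 without DMSO library 1 of the line, and 0.03 and 0.01 when centred on length. PTTG1, which encodes securin, stood at 210 and 231 RPKM with DMSO and 199 and 201 RPKM with JQ1 in SU-DHL-5, and at 192 and 173 RPKM and 193 and 187 RPKM in Toledo. BUB3, a checkpoint protein, stood at 88.1 and 89.2 RPKM with DMSO and 76.4 and 78.8 RPKM with JQ1 in SU-DHL-5, and at 113 and 122 RPKM and 100.5 and 97.5 RPKM in Toledo. BUB3 was lower with JQ1 in both lines and PTTG1 in SU-DHL-5 alone, since its Toledo arms overlapped. The log2 ratios were −0.19 and −0.25 for BUB3 (−0.15 and −0.14 when centred on length) and −0.14 and 0.06 for PTTG1, which centred on length was at −0.02 and 0.27. The SU-DHL-5 ratio of PTTG1 was −0.21 without DMSO library 1 and −0.065 without DMSO library 2. BUB1, the kinase that recruits checkpoint proteins to kinetochores, stood at 40.3 and 40.8 RPKM with DMSO and 49.9 and 49.9 RPKM with JQ1 in SU-DHL-5, and at 64.8 and 74.3 RPKM and 82.7 and 79.5 RPKM in Toledo. Here the high libraries were those with JQ1, in both lines, at ratios of 0.30 (interval 0.24 to 0.35) and 0.22 (0.18 to 0.27). The Toledo ratio was 0.13 without DMSO library 1 and 0.32 without DMSO library 2. CDC20 stood at 154 and 139 RPKM with DMSO and 147 and 148 RPKM with JQ1 in SU-DHL-5, and at 163 and 155 RPKM and 153 and 166 RPKM in Toledo. The arms of CDC20, whose promoter carries the CHR close to CCAAT, overlapped in both lines, with ratios of 0.01 (−0.03 to 0.06) and 0.00 (−0.04 to 0.05), and of 0.08 and 0.17 when centred on length, above these intervals.

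MAD2L1 encodes MAD2, the checkpoint protein that binds CDC20. It stood at 116 and 134 RPKM with DMSO and 140 and 141 RPKM with JQ1 in SU-DHL-5, and at 190 and 195 RPKM and 180 and 159 RPKM in Toledo. The JQ1 libraries were thus the high ones in SU-DHL-5 and the low ones in Toledo, at log2 ratios of 0.17 (interval 0.12 to 0.22) and −0.18 (−0.22 to −0.14), neither of which reached 1.5-fold. The SU-DHL-5 ratio was 0.07 without DMSO library 1 and 0.28 without DMSO library 2, and the Toledo ratio −0.10 without JQ1 library 2.

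Kinetochore genes had median log2 ratios of −0.23 and −0.19 over 6 genes, the latter −0.07 without DMSO library 2 and −0.01 when centred on length, and subunits of the NDC80 complex differed from each other. NUF2 stood at 36.3 and 43.4 RPKM with DMSO and 37.4 and 40.1 RPKM with JQ1 in SU-DHL-5, and at 35.2 and 38.7 RPKM and 40.4 and 33.4 RPKM in Toledo. SPC25, of the same complex, stood at 30.4 and 34.3 RPKM with DMSO and 24.1 and 22.5 RPKM with JQ1 in SU-DHL-5, and at 37.8 and 39.7 RPKM and 28.0 and 24.2 RPKM in Toledo. NUF2 overlapped between arms in both lines, whereas SPC25 was lower in each JQ1 library. The log2 ratios were −0.04 and −0.00 for NUF2, and −0.47 (interval −0.58 to −0.36) and −0.57 (−0.67 to −0.47) for SPC25, which fell by 1.5-fold or more in Toledo without DMSO library 1 and without JQ1 library 1. CENPE, a kinesin-like motor of the kinetochore, stood at 3.22 and 3.31 RPKM with DMSO and 4.06 and 4.04 RPKM with JQ1 in SU-DHL-5, and at 5.29 and 7.28 RPKM and 7.44 and 6.50 RPKM in Toledo. CENPE lay above DMSO in SU-DHL-5 (0.30, and 0.09 when centred on length) and overlapped in Toledo (0.15), where its DMSO libraries were far apart and the ratio ran from −0.06 without library 1 to 0.39 without library 2.

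The 10 kinesins, motors that move along spindle microtubules, had median log2 ratios of 0.09 and −0.03 with a range in SU-DHL-5 of −0.51 to 0.35 and in Toledo of −0.70 to 0.34. The Toledo median was −0.13 without DMSO library 1 and 0.10 without DMSO library 2, and the SU-DHL-5 median 0.03 when centred on length. KIF22, which binds chromosome arms, stood at 76.7 and 71.9 RPKM with DMSO and 50.9 and 53.5 RPKM with JQ1 in SU-DHL-5, and at 69.1 and 66.4 RPKM and 51.7 and 53.1 RPKM in Toledo. KIF20B, a cytokinesis motor, stood at 7.63 and 8.16 RPKM with DMSO and 9.54 and 10.7 RPKM with JQ1 in SU-DHL-5, and at 4.51 and 6.42 RPKM and 6.92 and 6.94 RPKM in Toledo. The 2 genes moved apart, with KIF22 low and KIF20B high in the JQ1 libraries of both lines. Log2 ratios were −0.51 and −0.37 for KIF22 and 0.35 and 0.34 for KIF20B. In Toledo the ratio of KIF20B was 0.11 without DMSO library 1 and 0.61, past 1.5-fold, without DMSO library 2. KIF14, another motor of cytokinesis, stood at 3.03 and 3.13 RPKM with DMSO and 3.05 and 3.27 RPKM with JQ1 in SU-DHL-5, and at 7.21 and 10.2 RPKM and 5.58 and 5.03 RPKM in Toledo. The arms overlapped in SU-DHL-5 and did not in Toledo, where DMSO library 2 was the highest. KIF14 fell in Toledo, by a log2 ratio of −0.70 (interval −0.81 to −0.60), which was −0.93 without DMSO library 1 and −0.43 without DMSO library 2. In SU-DHL-5 its ratio was 0.04 (−0.12 to 0.18), and the difference between the lines was not tested. KIF4A has a near-identical copy, KIF4B, listed at up to 0.125 RPKM, and PTTG1 a copy, PTTG2, at up to 0.221 RPKM, so how reads were split within these pairs is uncertain.

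Spindle and cytokinesis proteins held the member furthest above DMSO in each line. These were ASPM in SU-DHL-5 (0.43, named after its values were seen) and ANLN in Toledo. ASPM overlapped between arms in Toledo (0.25). Centred on length, 0 members, ASPM included, reached 0.32 above DMSO in SU-DHL-5. Without Toledo DMSO library 2 the kinesin KIF20B stood slightly higher than ANLN there. The 6 genes of this role had median log2 ratios of −0.02 and 0.11. Without DMSO library 1 of the line these medians were −0.10 and −0.01, and without DMSO library 2 they were 0.07 and 0.20. NUSAP1, which binds microtubules near chromosomes, stood at 128 and 136 RPKM with DMSO and 137 and 138 RPKM with JQ1 in SU-DHL-5, and at 161 and 179 RPKM and 171 and 163 RPKM in Toledo. PRC1, which bundles microtubules of the central spindle, stood at 23.2 and 22.4 RPKM with DMSO and 16.4 and 17.5 RPKM with JQ1 in SU-DHL-5, and at 16.0 and 17.6 RPKM and 12.4 and 12.3 RPKM in Toledo. NUSAP1 was nearly level, at 0.06 and −0.02, and PRC1 was low in each JQ1 library. The ratios of PRC1 were −0.43 (interval −0.51 to −0.35) and −0.44 (−0.53 to −0.35). ANLN, which encodes the contractile ring protein anillin, stood at 9.33 and 9.31 RPKM with DMSO and 12.3 and 11.6 RPKM with JQ1 in SU-DHL-5, and at 10.3 and 12.6 RPKM and 16.5 and 14.9 RPKM in Toledo. ANLN was high in each JQ1 library, at ratios of 0.35 (0.26 to 0.46) and 0.45 (0.38 to 0.55), below 1.5-fold. Centred on length, the SU-DHL-5 ratio of ANLN was 0.21. The Toledo ratio of ANLN was 0.32 without DMSO library 1 and 0.60, past 1.5-fold, without DMSO library 2. PRC1 and ANLN, which act at the same stage, thus lay on opposite sides of DMSO in both lines.

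TOP2A and MKI67 encode chromosome proteins used as markers of proliferation. TOP2A stood at 52.7 and 54.4 RPKM with DMSO and 46 and 48.8 RPKM with JQ1 in SU-DHL-5, and at 166 and 217 RPKM and 203 and 191 RPKM in Toledo. MKI67 stood at 17.9 and 15.3 RPKM with DMSO and 17.0 and 16.7 RPKM with JQ1 in SU-DHL-5, and at 18.0 and 24.0 RPKM and 20.2 and 17.6 RPKM in Toledo. TOP2A lay below DMSO in SU-DHL-5 and overlapped in Toledo, and MKI67 overlapped in both lines. Centred on length, both genes lay below DMSO in SU-DHL-5 (MKI67 at −0.20), as did 1 of them in Toledo. The log2 ratios were −0.18 and 0.04 for TOP2A and 0.02 and −0.15 for MKI67, and those of TOP2A in Toledo and of MKI67 in both lines changed sign with the library or scaling used. So did the ratios of CDK1, CDC20 and NUF2 in both lines, those of CDCA8 and KIF14 in SU-DHL-5, and those of PTTG1, CENPE, NUSAP1, MYC and IQGAP3 in Toledo.

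With DMSO alone, the members were among the more abundant genes of both lines. Their DMSO means ran from 3.08 RPKM (KIF14) to 220.3 RPKM (PTTG1) in SU-DHL-5, with a median of 34.1 RPKM beside 10.0 RPKM over genes tested. In Toledo they ran from 5.47 RPKM (KIF20B) to 192 RPKM (MAD2L1), with a median of 35.5 RPKM beside 9.53 RPKM. Of the 46, 37 in SU-DHL-5 and 41 in Toledo lay above the median gene, and 9 and 13 lay in the top 10% of genes tested. Between the lines, 12 members were at least 1.5-fold higher in Toledo and 2 at least 1.5-fold lower, beside 21.5% and 21.5% of genes. The 2 lower in Toledo were AURKB (log2 difference −0.87) and CDK1 (−0.72). Among the higher, CDC25B, named after its values were seen, differed by 2.18, TOP2A by 1.84, KIF14 by 1.47 and BIRC5 by 1.15 on the log2 scale. These are levels of 1 sample per line, so line and sample cannot be told apart.

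The Toledo DMSO libraries differed from each other along the length of the gene. The log2 ratio of DMSO library 2 over library 1 ran from −0.15 to 0.50 over the members in Toledo and from −0.25 to 0.29 in SU-DHL-5. In Toledo 7 members had DMSO libraries at least 0.32 apart on the log2 scale, beside 17.0% of genes, and in SU-DHL-5 0 had, beside 6.97%. Across the 46 members, Spearman's rho between length and this ratio was 0.77 in Toledo and −0.33 in SU-DHL-5, beside 0.62 and −0.09 over all genes tested. Long genes such as CENPE, TOP2A and MKI67 were thus higher in Toledo DMSO library 2, and short ones such as PTTG1 were lower. The ratio of JQ1 over DMSO was also related to length, with rho of 0.42 over the members and 0.18 over genes in SU-DHL-5. In Toledo rho was 0.25 and 0.12. Genes of the same library are not independent replicates, and the part of length in the members' ratios was not tested beyond the centred counts.

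**Figure D4:**
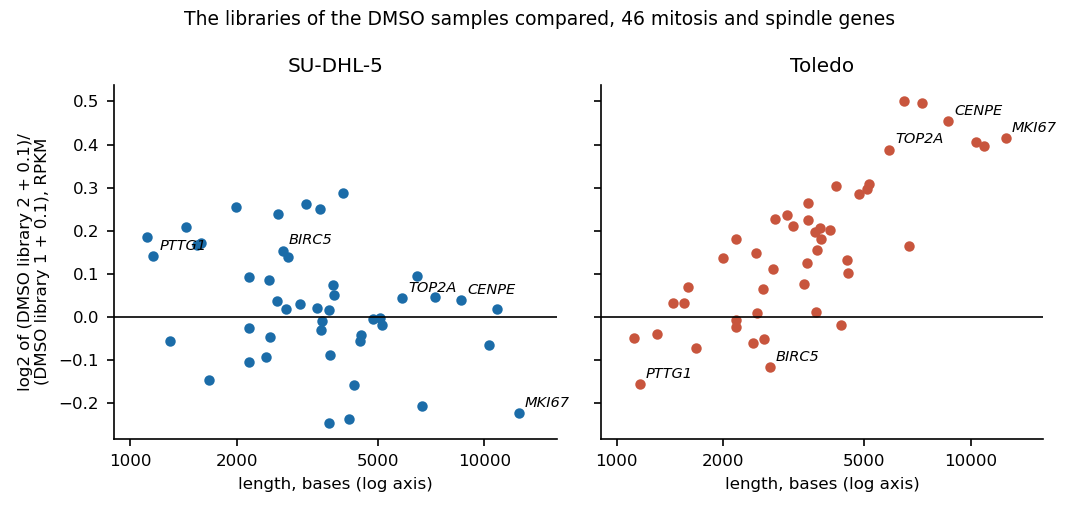
Log2 ratio of DMSO library 2 over library 1 (vertical axis, RPKM plus 0.1) against the length of the gene in bases (horizontal log axis) for the 46 members, in SU-DHL-5 (left) and Toledo (right). In Toledo the ratio is higher for longer genes, with rho 0.77, and in SU-DHL-5 it is not, with rho −0.33.

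The plot of the DMSO libraries shows that the Toledo members range up to 0.50, so a Toledo difference of that size in a long gene lies within the spread between libraries of the same sample. The interval of counting error does not cover this spread.

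Other genes of the same pathways were taken as 9 lists with 115 genes, of which 3 were found under older symbols and all were tested in both lines. Of these, 9 fell in both lines, beside 7.39% of genes tested: LIN9, UBE2C, PKMYT1, CDC25A, MCM2, MCM5, MCM7, CDT1 and RFC3. The call in both lines was lost for PKMYT1 and CDT1 without SU-DHL-5 DMSO library 1, and for LIN9 without SU-DHL-5 DMSO library 2. It was also lost for RFC3 without SU-DHL-5 JQ1 library 1, and for CDT1 and RFC3 when centred on length. GINS3 gained the call when scaled to the median gene, without SU-DHL-5 DMSO library 2 and without SU-DHL-5 JQ1 library 1. SGO1 gained it when centred on length and without SU-DHL-5 JQ1 library 1, and STAG2 without Toledo DMSO library 1. In Toledo the medians of 4 lists lay below that of the members, at −0.46 for DNA replication (31 genes), −0.38 for mitotic entry (6), −0.31 for MuvB, DREAM and B-MYB (12) and −0.26 for centromere genes (15). In SU-DHL-5 these medians were −0.33, 0.00, −0.15 and 0.01. The Toledo median of mitotic entry was −0.23 without DMSO library 2, and that of centromere genes was −0.10 when centred on length. Of the replication genes 5 fell in SU-DHL-5, 12 fell in Toledo and 0 rose in either line, beside the 12.1% and 15.8% of genes that fell. Centred on length, 3 and 9 fell. In each list, the genes with the lowest and the highest ratio by the mean of both lines are named, which need not be the ends of the list in a single line. For replication these were MCM5, of the helicase that opens origins (−0.96 and −0.78), and GINS4, of a partner complex of that helicase (0.20 and 0.20). CDC25A, which activates CDKs, fell with ratios of −0.71 and −0.98, and PKMYT1, which inhibits CDK1, with −0.67 and −0.76, while CKS1B, a CDK-binding subunit, stood at 0.10 and 0.34.

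MuvB and B-MYB, which act with FOXM1 at the CHR, are part of the MuvB, DREAM and B-MYB list. In Toledo the 12 genes of this list had ratios below 0, or 11 of them when centred on length or without DMSO library 2, beside 5255 of the 9380 genes tested. Of the list, 10 had both JQ1 libraries below both DMSO libraries (7 when centred) and 0 above, beside 42.9% and 29.7% of genes. In SU-DHL-5, 8 lay below DMSO and 2 above, beside 38.0% and 42.3%, and the median became −0.07 without DMSO library 2. At 1.5-fold 1 of the list fell in SU-DHL-5 and 3 fell in Toledo (2 without JQ1 library 2), beside 12.1% and 15.8% of genes. The 3 were LIN9 and, named after their values were seen, TFDP2 (−0.69) and RBL2 (−0.65). LIN9, a MuvB subunit, fell, with ratios of −0.70 and −1.10, and LIN54, the subunit that contacts the CHR, stood at 0.26 and −0.14. In the anaphase-promoting complex list, with medians of 0.01 and 0.01 over 18 genes (0.08 and −0.06 without DMSO library 1 of the line), UBE2C, its ubiquitin-conjugating enzyme, fell with −1.10 and −0.82, and ANAPC16, a subunit, stood at 0.55 and 0.66, rising in Toledo. Named after their values were seen, ANAPC15 (−0.77) and CDC23 (−0.69) also fell in Toledo and ANAPC11 (0.62) rose in SU-DHL-5. Of the list, 1 fell and 1 rose in SU-DHL-5, beside 12.1% and 8.74% of genes. In Toledo 3 fell and 1 rose (2 and 2 when centred on length), beside 15.8% and 6.71%. The count that rose became 2 in SU-DHL-5 without DMSO library 2 and 2 in Toledo without DMSO library 1. UBE2C stood at 94.6 and 93.8 RPKM with DMSO and 43.4 and 44.5 RPKM with JQ1 in SU-DHL-5, and at 327 and 297 RPKM and 173 and 180.2 RPKM in Toledo. UBE2C libraries did not overlap in either line, unlike those of its partner CDC20.

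Structural lists were compared in the same way. Condensin (8 genes) had medians of 0.05 and 0.03, from SMC2 (−0.17 and −0.52) to SMC4 (0.32 and 0.28), which form the core of the complex together. The Toledo median ran from −0.03 without DMSO library 1 to 0.15 without DMSO library 2, and the SU-DHL-5 median was 0.02 without DMSO library 2 and −0.04 when centred on length. Cohesin (11 genes) had medians of −0.12 and −0.07, with the cohesin protector SGO1 (−0.50 and −0.81) falling in Toledo and its relative SGO2 at 0.15 and 0.14. STAG2, named after its values were seen, fell in SU-DHL-5 (−0.61), but no gene of the list did so there without DMSO library 2. Centred on length, 2 of the list fell in SU-DHL-5, and without Toledo DMSO library 1, 2 fell in Toledo. The Toledo median was −0.22 without DMSO library 1 and 0.06 without DMSO library 2. The SU-DHL-5 median was −0.05 without DMSO library 2 and −0.18 when centred on length. Centromere genes (15) had medians of 0.01 and −0.26, from CENPT (−0.48 and −0.34) to CENPN (0.39 and 0.26), and the SU-DHL-5 median was 0.11 without DMSO library 2. For centriole and centrosome genes (7) they were 0.10 and −0.14, from SASS6 (−0.31 and −0.79), which fell in Toledo, to PCNT (0.55 and 0.33). In Toledo 1 gene of this list fell, beside 15.8% of genes. Without Toledo DMSO library 2, 0 fell and the median was 0.05, and without DMSO library 1, 2 fell and the median was −0.31. The SU-DHL-5 median was 0.02 without DMSO library 2, 0.03 without JQ1 library 2 and −0.02 when centred on length. Tubulins (7) had medians of −0.15 and −0.07, from TUBB (−0.38 and −0.29) to TUBB2A (0.38 and 1.85), which rose in Toledo. There TUBB2A stood near the filter of 1 RPKM, at 1.22 and 0.99 RPKM with DMSO and 4.63 and 3.86 RPKM with JQ1. The medians of the tubulins were −0.07 and 0.10 when centred on length. The SU-DHL-5 median was −0.06 without DMSO library 1, and the Toledo median −0.03 without DMSO library 1, −0.02 without JQ1 library 1 and −0.10 without JQ1 library 2. TUBA1A (0.77 and 0.73) rose in both lines and TUBB4B (0.82 and 0.53) in SU-DHL-5, both named after their values were seen; tubulin genes are alike in sequence, so their split is uncertain.

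**Figure D5:**
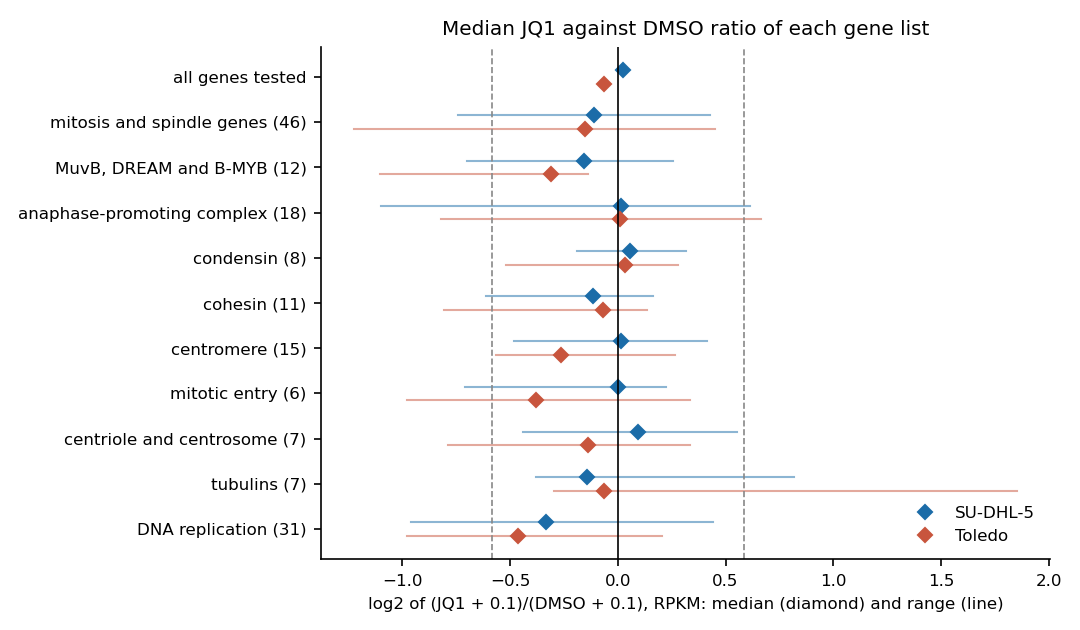
Median (diamonds) and range (lines) of the log2 ratio of JQ1 over DMSO (horizontal axis, RPKM plus 0.1) for all genes tested (median alone), the 46 members and each pathway list, with the number of genes in brackets, in SU-DHL-5 (blue) and Toledo (red). Dashed lines mark 1.5-fold, and the DNA replication list has the lowest medians, −0.33 and −0.46. Without Toledo DMSO library 1 the Toledo median of mitotic entry (−0.52) was below that of DNA replication (−0.46).

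The plot of list medians sets the members, at −0.11 and −0.15, between the median gene and the DNA replication list in both lines.

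IQGAP3, a scaffold protein of the cytoskeleton that the study followed, is set beside the members. It stood at 1.06 and 0.98 RPKM with DMSO and 0.49 and 0.52 RPKM with JQ1 in SU-DHL-5, where it averaged under 1 RPKM and was not tested. In Toledo it stood at 1.89 and 2.33 RPKM with DMSO and 1.98 and 1.99 RPKM with JQ1, and its arms overlapped. The log2 ratio of IQGAP3 was −0.89 in SU-DHL-5, on the side of FOXM1, PLK1 and KIF22, and −0.08 (interval −0.28 to 0.12) in Toledo. From reads with no pseudocount, the SU-DHL-5 ratio was −1.02 (interval −1.38 to −0.66). At this level the value depends on the pseudocount, being −0.43 in SU-DHL-5 with 1 RPKM added, short of 1.5-fold. The Toledo ratio was −0.22 without DMSO library 1 and 0.07 without DMSO library 2. Its level was below that of each member in both lines.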

How the data were processed

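The authors treated SU-DHL-5 and Toledo cells with DMSO or JQ1, made stranded mRNA libraries and deposited RPKM values from trimmed paired reads, in a table of genes and a table of transcripts, per the file headers. The submitters' processing notes name CASAVA 2.0 and GRCh38. The aligner, the annotation and how reads were counted, strand included, are not given in the sources used here. Of the RPKM columns, 0 could not be given a sample. The 46 members and the pathway lists were chosen with earlier results of these data known.

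Mapped reads per library were recovered as the total that best turned RPKM values of single-exon genes into whole reads. Of 325 such genes, 192 to 242 had a value in a library, and 94.6% to 96.4% of these came within 0.01 of a whole number. The totals ran from 14617583 to 17679831 reads, of which 94.8% to 95.5% were on genes. Lengths and reads followed for 14942 of 14944 genes with a value. Reads gave the intervals, and no count model was fitted. Libraries of a sample were averaged. A B cell marker of the original list is not reported here.

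Values per library are given in each role for the member with the highest mean RPKM and the members with the lowest and the highest mean log2 ratio, and for CDK1, CCNB1, PLK1, AURKA, AURKB, BIRC5, CDC20, FOXM1, TOP2A and MKI67. In each pathway list the genes with the lowest and the highest mean ratio are named. Genes outside these rules are marked as named after their values were seen, as are, here, the other members listed by a count and the 9 pathway genes that fell in both lines.

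Alternatives were pseudocounts of 1 and 0.01 RPKM, no filter and a mean of at least 5 RPKM, scaling to the median ratio, centring on length, each library alone, summed transcript values, folds of 2 and 1.25 (0.32 in log2), and, chosen after seeing the data, leaving out each library in turn. The alternatives of the count of members that rose were also chosen then. Values were computed with scipy 1.17.1, pandas 2.3.3 and numpy 2.4.6 in Python 3.11.15 and drawn with matplotlib 3.10.9.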

Additional observations from a re-analysis of the deposited data

Results flagged for a closer look

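MAD2L1 was singled out because each JQ1 library was higher than each DMSO library in SU-DHL-5 and lower than each in Toledo. Its log2 ratio in Toledo minus that in SU-DHL-5 was −0.35. The difference was not tested, since there was 1 sample per condition, and centred on the length of the gene the Toledo ratio of MAD2L1 was −0.07.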

How the results depend on the processing

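No test was made, paired by line or unpaired. Of 123 alternatives of 9 values over the members, 99 kept the value within its limit and 24 moved it. The limit was 1.5 times for a count and, for a median, 1 SD of its values from either library alone, which is wider in Toledo. Values within it can still differ, and the cause was not tested. The SU-DHL-5 median was −0.075 from library 1 alone, −0.15 without DMSO library 1 and −0.082 without DMSO library 2. The Toledo median ran from −0.20 without JQ1 library 1 to −0.072 without DMSO library 2, and was −0.067 from library 1 alone and −0.21 from library 2 alone. The count of lower members in SU-DHL-5 (1) was 2 when scaled to the median ratio, 3 from library 1 alone, 3 from library 2 alone, 0 at a fold of 2 and 10 at a log2 ratio of 0.32, and 2 without DMSO library 1, DMSO library 2 or JQ1 library 2. In Toledo (2) it was 1 from library 1 alone, 4 from library 2 alone, 1 at a fold of 2, 11 at 0.32, 4 without DMSO library 1, 1 without DMSO library 2 and 3 without JQ1 library 1. In both lines (1) it was 2 from library 2 alone (FOXM1 and SPC25), 0 at a fold of 2 and 6 at 0.32. The count of higher members (0 in each line) was 3 at 0.32 in SU-DHL-5, and in Toledo 3 from library 1 alone, 2 at 0.32 and 2 without DMSO library 2.

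Of 637 alternatives of 58 single-gene ratios, 454 stayed within the interval of counting error and 183 did not. Another sign appeared in 49, each for a ratio no further than 0.151 from 0. Depth limits the least covered members most, the fewest reads of a member in a library being 223.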
